A study of Mus musculus with 10 samples.

Results

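The cytosolic ribosomal protein genes were examined in RNA-seq libraries of primary differentiated mouse adipocytes with and without deletion of Fam20c, which encodes a serine/threonine kinase of the secretory pathway. The group was taken by symbol, as every gene named Rpl or Rps followed by a number, with Rplp0, Rplp1, Rplp2 and Rpsa. The 307 pseudogene rows with a -ps suffix were left out, and so were 11 rows for S6 kinases and an S19 binding protein. This gave 93 genes among 56748 rows of the count table. Of these, 46 encode core proteins of the large subunit, 31 encode core proteins of the small subunit, and 16 are paralogues or retrocopies.

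Both groups held cells of the stromal vascular fraction of inguinal fat from male mice of 6 to 8 weeks, put through adipogenic differentiation for 6 to 8 days. The 5 control libraries came from Fam20c-flox mice, backcrossed for at least 5 generations to C57BL/6J, and the 5 KO libraries from Ad-Fam20c–KO mice (Fam20c-flox/Adipoq-Cre). All 10 libraries therefore carry the floxed allele, the control mice carry no Cre, and the Adipoq promoter drives Cre only as cells become adipocytes, so cells of the culture that do not differentiate keep Fam20c. The sources do not say whether each library came from its own mouse, and the p-values below measure the spread between these libraries, part of which may be technical.

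A ribosome is built from ribosomal RNA and a set of proteins needed in nearly equal amounts, of which most are encoded by a single expressed gene in mammals. The small subunit reads the mRNA and the large subunit joins the amino acids. Ribosomal protein mRNAs are among the most abundant and most evenly expressed in a cell, and most begin with a cytosine and a run of pyrimidines, the terminal oligopyrimidine (TOP) tract. Through this tract their translation follows the activity of mTOR, which insulin stimulates in adipocytes. Because the control acts on translation, mRNA counts do not show it.

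The tract was looked for in reference sequence first, since it is the sequence feature described above for most such mRNAs. RefSeq start sites (GRCm38.p6) were matched for 57 of the 77 core genes. A C followed by at least 5 further C or T, beginning within 10 bases of a start site on the transcribed strand, was found in 31 of the 57 (54.4%). The 57 genes had 67 annotated start sites, and a match at any of them counted for the gene. The same letters were found at 21.9% of the 27025 genes with a promoter in the reference and at 24% of the 10573 of these that were tested for expression. On the opposite strand they were found in 10.5% of the core genes and 25.2% of all genes. The following 30-base windows hold 10 bases before the start site and 20 bases from it onwards, 5′ to 3′, with the run in capitals. They belong to genes with the run whose values are described below: 3 that the study or the field uses as a qPCR reference or a marker of S6 kinase signalling (Rps18, Rpl13a, Rps6), the genes with the highest and lowest fold change among well-counted core members (Rplp2, Rps12), an abundant small subunit gene (Rps9), a gene with an expressed paralogue (Rps27), and a core gene with few counts (Rps10).
Rps18 (chr17:33955646-33955675, minus strand): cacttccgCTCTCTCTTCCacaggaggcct
Rpl13a (chr7:45128726-45128755, minus strand): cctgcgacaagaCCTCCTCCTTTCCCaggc
Rps6 (chr4:86857348-86857377, minus strand): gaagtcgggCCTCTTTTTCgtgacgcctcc
Rplp2 (chr7:141447641-141447670, plus strand): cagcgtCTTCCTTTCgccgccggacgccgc
Rps12 (chr10:23787190-23787219, minus strand): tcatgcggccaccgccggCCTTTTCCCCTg
Rps9 (chr7:3704031-3704060, plus strand): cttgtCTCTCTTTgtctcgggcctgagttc
Rps27 (chr3:90213629-90213658, minus strand): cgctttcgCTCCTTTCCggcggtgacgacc
Rps10 (chr17:27635225-27635254, minus strand): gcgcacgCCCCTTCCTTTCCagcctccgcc

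In 7 of these windows the run begins at most 5 bases from the annotated start, whereas in Rps12 it begins 8 bases after it. The windows were chosen among genes that hold the run. Among the other genes described below, Rplp0, Rpl5, Rpl9, Rpl10, Rpl11, Rpl22, Rps3a1, Rps4x and Rpsa hold no run that begins within 10 bases of an annotated start. The start sites were taken from the reference and were not measured here, so a miss cannot show that an mRNA lacks the tract. Another 3 motifs were searched on both strands of the 300 bases from 250 before the start to 50 after it. CCGGAAG, the letters of an ETS factor site, was present in 42.1% of the core genes, 9.93% of all genes with a promoter and 19.5% of those tested. AAGATGGC, the letters of a YY1 site, was present in 8.77%, 3.19% and 5.08% of the same sets. TATAAA was present in 10.5%, 15.7% and 9.14%. A match describes the letters in the window and no binding was measured.

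The members are spread over 19 chromosomes, with 15 on chromosome 7 and 4 on the X chromosome. According to the annotation (GENCODE M21, GRCm38) 86 of the 93 are protein coding and 7 have a pseudogene biotype, and 30 hold at least 1 small nucleolar RNA gene within their bounds. The median length of the representative transcript was 751 bases for the members and 1112 bases for all rows with a length.

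Each library held 18949106 to 26237825 counts on genes. In a principal component analysis of all genes tested, control 4 and KO 1 stood apart from the other 8 libraries along the first component, which held 23.5% of the variance. Results that rest on these libraries are also given without them. Fam20c itself fell from 10.2 ± 1.29 to 7.30 ± 0.449 CPM (counts scaled to TMM-adjusted library sizes; mean ± SD, n = 5 each), by 0.49 on the log2 scale (adjusted p = 0.0121, edgeR quasi-likelihood test), without overlap between the groups. Of 8 adipocyte markers, 0 were called by edgeR at an adjusted p of 0.05, 6 had a log2 fold change above 0 and 3 an unadjusted p under 0.05. Their summed level was 35050 to 36316 CPM in control and 36375 to 38693 CPM in KO libraries. Most of this sum was Fabp4, with 20805 ± 357 CPM in control and 22552 ± 945 CPM in KO (adjusted p = 0.275, edgeR), where the groups overlapped. All 12 endothelial markers had a log2 fold change below 0 and 10 of them were called lower, where 1.85% of all genes were, and their summed level was 153 to 187 CPM in control and 61.1 to 91.8 CPM in KO. All 6 progenitor markers had a log2 fold change below 0 and 2 had an unadjusted p under 0.05 (edgeR). Of the 6, 1 was called lower (Pdgfra, log2 fold change -0.31, adjusted p = 0.00647, no overlap). Their summed level was 1449.7 to 1772 CPM in control and 1441 to 1618 CPM in KO. None of the 8 macrophage, 5 mural and 5 proliferation markers tested was called by edgeR, and 0 of them had an unadjusted p under 0.05. Fewer cells of a type and less RNA per cell cannot be told apart in such bulk samples, and the part of these markers in the results below was not tested.

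Ribosomal protein genes took up a closely similar share of the counts in both genotypes. All 93 members together held 2.25, 2.29, 2.50, 2.15 and 2.48% of the counts in control libraries 1 to 5, and 2.36, 2.16, 2.47, 2.43 and 2.23% in KO libraries 1 to 5. The group means were 2.33% ± 0.151 in control and 2.33% ± 0.130 in KO (SD, n = 5 each), a difference of -0.00339 percentage points. The libraries of both groups therefore covered the same range, and the spread within each group was far larger than the difference between them. Large subunit genes held 1.35% ± 0.0865 of the counts in control and 1.35% ± 0.0749 in KO, and small subunit genes held 0.956% ± 0.0626 and 0.952% ± 0.0544. The ratio of large to small subunit counts was 1.41 ± 0.00659 in control and 1.42 ± 0.00837 in KO. The paralogues and retrocopies held 0.0283% ± 0.00176 and 0.0278% ± 0.00146, and the 307 pseudogene rows 0.00764% ± 0.000148 and 0.00766% ± 0.000511. Reads that fit both a gene and such a copy may have been left uncounted, since the setting for them is not given in the sources used here.

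Levels were then compared between genes in TPM, which divides the counts by transcript length and was computed from the length of 1 representative transcript per gene. The 77 core genes had a median of 737 TPM, with 683 TPM for the large and 918 TPM for the small subunit. Leaving out 3 genes with few counts, the middle of the other 74 was narrow, with quartiles at 553 and 993 TPM. These 74 genes lay between 133.5 TPM (Rps20) and 1771 TPM (Rplp2), a 13.3-fold span.

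The 3 proteins of the stalk, the arm of the large subunit that recruits the elongation factors, headed the order. Rplp2 had 1732 ± 137 TPM in control and 1810 ± 102 TPM in KO, and Rplp1 had 1777 ± 171 and 1763 ± 158 TPM. These 2 genes exchanged the first and second rank between libraries and did not differ beyond their spread. Rplp0, the scaffold to which they bind, followed with 1501 ± 104 and 1477 ± 77.5 TPM. Rpl10, which completes the large subunit and shapes its catalytic centre, had 1472 ± 66.5 and 1428 ± 81.1 TPM, and Rps9, a small subunit protein near the entry of the mRNA channel, had 1418 ± 73.1 and 1428 ± 93.8 TPM. Over the 10 libraries Rplp0 ranked 3 or 4, and Rpl10 and Rps9 each ranked 3 to 6, so that these neighbours did not keep 1 order. The order depends on the length used. With all exon bases of a gene as its length, an alternative added after the data were seen, Rplp1 and Rplp0 took the first and second place, and Rplp2, whose annotated exons are far longer than its main transcript, came 31st. Rps20 has a representative transcript of 3706 bases, and its level by counts (rank 46 of 77) was close to the middle of the group.

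**Figure D1:**
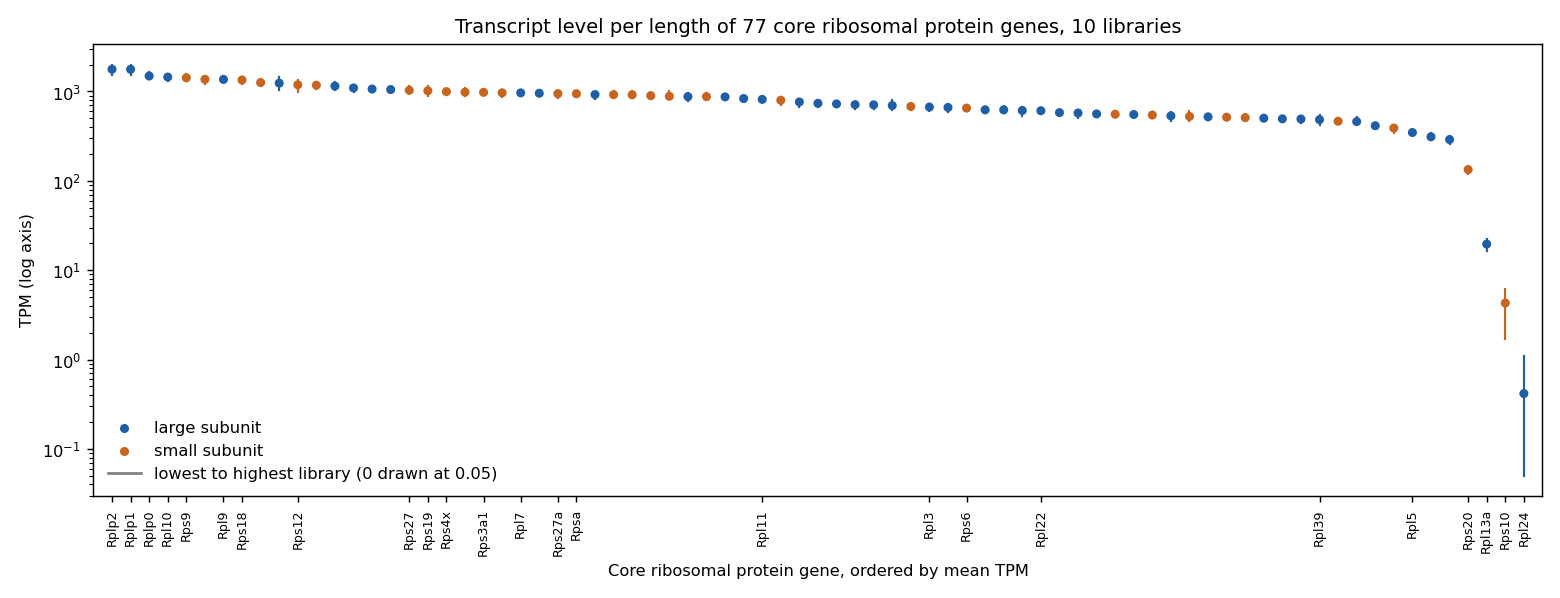
Level of the 77 core ribosomal protein genes in TPM (log axis), ordered by the mean of 10 libraries, with points for the mean and lines from the lowest to the highest library. Genes described in the text are named on the axis. Of these, 74 genes lie between 133.5 and 1771 TPM, and Rpl13a, Rps10 and Rpl24 fall below 50 TPM.

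The remaining 3 core genes stood far below the rest. Rpl24, a protein at the interface of the subunits, had 7, 5, 5, 1 and 0 counts in control libraries 1 to 5 and 0, 2, 3, 3 and 4 in KO. Rps10, a protein of the small subunit head, had 19, 40, 25, 27 and 13 counts in control and 27, 26, 27, 9 and 21 in KO. Rpl13a, a large subunit protein that serves some studies as a qPCR reference, had 180 to 258 counts in control and 180 to 253 in KO. For comparison, the mean counts of the other 74 core genes ran from 2257 (Rps21) to 21982 (Rplp0) per library.

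These 3 genes were also the core genes with the most coding sequence inside another annotated gene on the same strand. In GENCODE M21, 83.4% of the coding bases of Rpl24 (chr16:55966275-55971435) lie in exons of Gm28037, 80.1% of those of Rps10 (chr17:27630418-27636669) in exons of Gm49804, and 90.3% of those of Rpl13a (chr7:45125558-45128761) in exons of Gm45713. The 3 partner genes were listed at 0 counts in all 10 libraries. Outside the core, Rpl36al shared 95.3% of its coding bases with Gm49383 and had 1 to 13 counts. By contrast Rpl23a, whose coding bases overlap a gene on the opposite strand (Tlcd1) by 55.3%, was counted like the other core genes. The counts of Rpl24, Rps10, Rpl13a and Rpl36al are therefore uncertain as a measure of their mRNA, and how reads on shared exons were assigned was not tested.

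**Figure D2:**
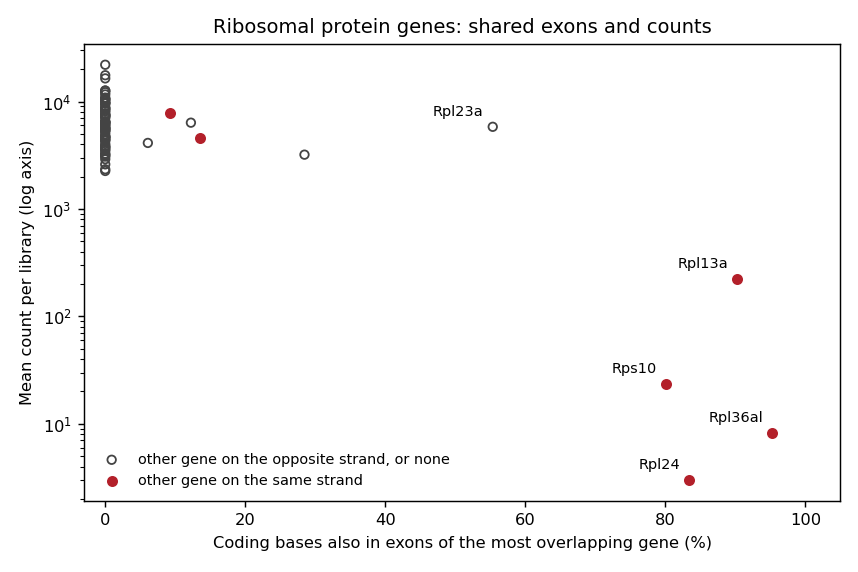
Mean count per library (log axis) against the share of coding bases that lie in exons of the most overlapping other gene, for the core genes with Rpl36al, Fau and Rack1. Filled points share exons on the same strand, and the 4 of them above 80% have the lowest counts of the genes plotted.

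The question the design addresses is whether adipocytes without Fam20c express these genes differently. Of the 93 members, 87 passed the filter on low counts (76 core genes and 11 paralogues or retrocopies). Rpl24, Rpl36al, Rpl3l, Rps12l1, Rps23rg1 and Rpl10l did not, and Rpl10l, a retrocopy of Rpl10 known for its role in the testis, was at 0 in every library. No member was called higher or lower in KO at an adjusted p of 0.05 (0 of 87, edgeR quasi-likelihood test with Benjamini-Hochberg adjustment over all 14270 genes tested), where 2.16% of all genes were called, 0.308% as higher and 1.85% as lower. DESeq2 also called 0 of the 87. At an unadjusted p under 0.05, edgeR and DESeq2 each passed 1 of 87 members, where edgeR passed 11.8% of all genes, 4.46% as higher and 7.33% as lower. In 0 of 87 members were the 2 groups of libraries free of overlap, beside 3.97% of all genes (1.31% higher and 2.66% lower in KO).

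The fold changes were small as well as uncalled. The median log2 fold change of the 87 members was 0.017, beside -0.00085 over all genes tested, and 59 of 87 were above 0 (49.7% of all genes). With total counts in place of scaled library sizes the median was -0.0049 for the members and -0.023 for all genes tested. The sign of the member median thus depended on the scaling, while on both scales the median stayed above that of all genes. Leaving out libraries changed this order in some cases. Without control 4 and KO 1 the member median was -0.0060, beside 0.0029 for all genes tested. It was 0.0028 beside 0.0041 without control 4, and 0.0013 beside 0.0037 without KO 3. Under the other alternatives run, which are listed at the end, it stayed above. The 74 core genes with a mean above 5 on the log2 CPM scale ranged from a log2 fold change of -0.08 (Rps12) to 0.09 (Rplp2), with a median standard error of 0.050. All 74 had a 95% interval within 0.25 of 0 on either side, the lowest bound being -0.23 and the highest 0.21. Of all 87 members tested, 79 had an interval within these limits, and of all 14270 genes 6738 had. The 14270 genes include many with lower counts, and genes of equal level were not compared. Large subunit genes had a median of 0.027 (45 tested, 34 above 0) and small subunit genes one of 0.0084 (31 tested, 22 above 0).

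**Figure D3:**
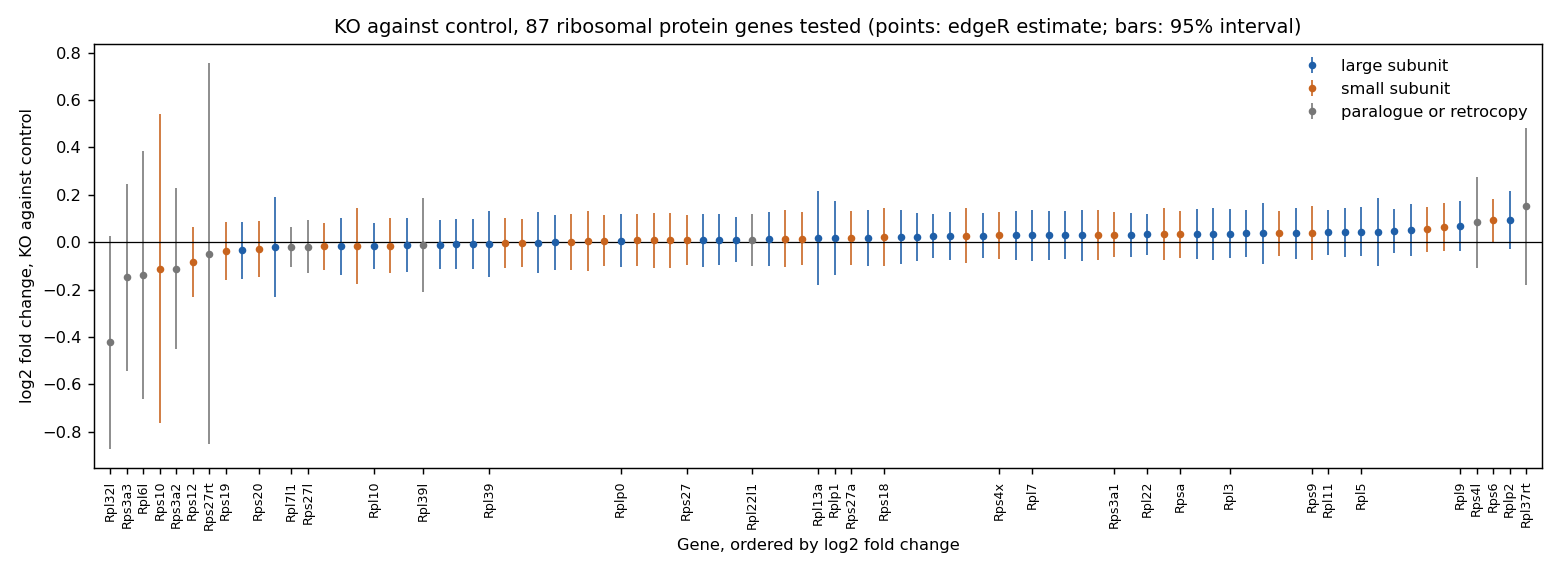
Log2 fold change of KO against control with its 95% interval for the 87 ribosomal protein genes tested, ordered by fold change, with the genes described in the text named on the axis. The intervals of the well-counted core genes stay within 0.25 of 0, and the wide ones belong to retrocopies and to Rps10.

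Among the proteins with known roles in signalling, Rps6 stood nearest to the limit. It encodes the classic substrate of S6 kinase, through which insulin acts on the ribosome. Its levels were 268.7, 259.8, 286, 274 and 289 CPM in control and 304, 289.5, 307, 292 and 277 CPM in KO. KO libraries lay mostly above control libraries, with KO 5 inside the control range. The log2 fold change was 0.09 ± 0.043 (SE), with an adjusted p of 0.42 (edgeR), and Rps6 was the 1 member that passed an unadjusted p of 0.05. An exact permutation test of log2 CPM gave p = 0.0397 (2-sided, smallest possible 0.00794, not adjusted).

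Rps18 is the transcript to which the study normalized its qPCR. It encodes a small subunit protein that lies at the head of the subunit. Its levels were 356, 355, 409.9, 340.3 and 397 CPM in control and 387, 347, 393, 394 and 364 CPM in KO. The groups overlapped over nearly their whole range. The log2 fold change was 0.02 ± 0.057 (SE), with a 95% interval from -0.10 to 0.14 (adjusted p = 0.952, edgeR), and the exact permutation test gave p = 0.746. Without control 4 and KO 1 the log2 fold change was -0.02, so its sign was not fixed while its size stayed small.

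Of the 3 stalk genes, Rplp2 had the largest fold change of the well-counted members. It had 338, 379.7, 389, 325 and 363 CPM in control and 372, 382, 421, 368 and 372 CPM in KO, with a log2 fold change of 0.09 ± 0.056 (adjusted p = 0.586, edgeR). Only control 1, 4 and 5 lay below all KO libraries. For Rplp1 the log2 fold change was 0.02 (adjusted p = 0.971, edgeR) and for Rplp0, itself a common qPCR reference, 0.01 (adjusted p = 0.989). With total counts as the scale these became -0.0048 and -0.016.

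At the other end of the well-counted genes was Rps12, a protein of the small subunit head that in flies takes part in the sensing of cells with a ribosomal protein mutation. It had 292, 291, 336, 271 and 311 CPM in control and 297, 270.1, 313, 290.3 and 247 CPM in KO. KO 5 was the lowest library and control 3 the highest, and the other 8 lay between 270.1 and 313 CPM in no order by genotype. The log2 fold change was -0.08 ± 0.068 (adjusted p = 0.739, edgeR).

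The other members with a known role gave values of the same size. Rpl5 and Rpl11, which with 5S rRNA form the particle that binds Mdm2 when ribosome assembly fails, had log2 fold changes of 0.04 and 0.04. Rpl3, next to the peptidyl transferase centre, had 0.04, and Rpl10, at the same centre, had -0.01. Rps27a, made as a fusion with ubiquitin, had 0.02, Rps19, the gene most often mutated in Diamond-Blackfan anaemia, had -0.04, and Rpsa, also known as a laminin receptor, had 0.03. Rpl9 had 0.07 and Rpl39, at the exit tunnel, had -0.01. The adjusted p of these 9 genes lay between 0.691 and 0.989 (edgeR).

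The libraries differed from each other more coherently than the genotypes did. For each of the 74 well-counted core genes the mean log2 CPM of the 10 libraries was taken as 0. In control libraries 1 to 5, 2, 12, 74, 1 and 71 of the 74 genes lay above their own mean, and in KO libraries 1 to 5, 63, 10, 70, 59 and 18 did. The median deviations were -0.065, -0.053, 0.076, -0.069 and 0.062 in control and 0.057, -0.072, 0.073, 0.050 and -0.054 in KO. Control 3, control 5, KO 1, KO 3 and KO 4 thus lay high in most of these genes and the other 5 libraries low, with libraries of both genotypes on each side. Over all genes tested the median deviation of a library lay between -0.0045 and 0.0145. TMM scaling itself holds that median near 0, so it cannot show whether the shift of the core genes is unusual. The genes share their library and its scaling, so that their number is not a number of observations.

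**Figure D4:**
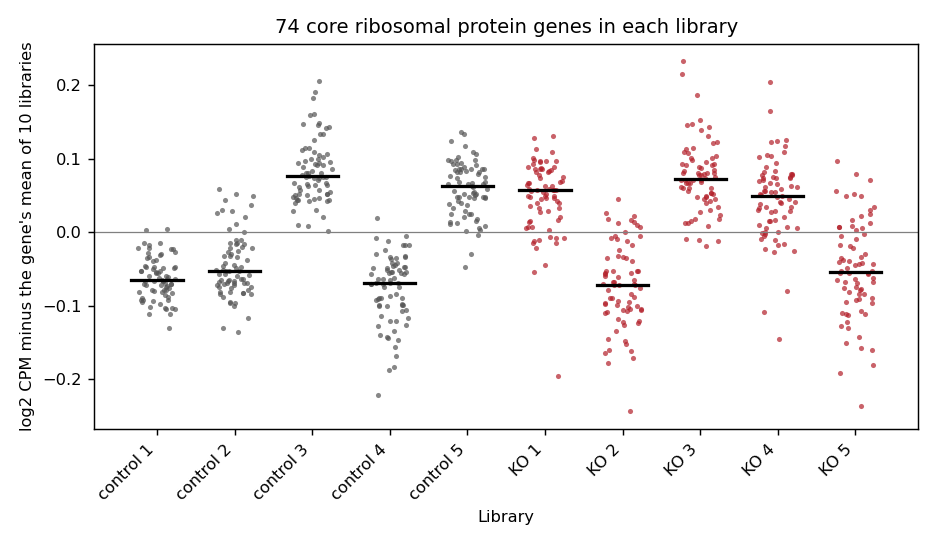
Deviation of each of the 74 well-counted core genes from its mean over 10 libraries, on the log2 CPM scale, with 1 point per gene and a line at the median of each library. Control 3 has all 74 genes above 0 and control 4 has 1, while KO libraries lie on both sides.

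When the median deviation of the 74 genes was subtracted from each library, the median SD of a gene within its group fell from 0.081 to 0.042, beside 0.135 over all genes tested without such a step. The differences between KO and control then ran from -0.10 (Rps12) to 0.074 (Rplp2), Rps6 had 0.072 and Rps18 had 0.0021, and in 0 of 74 genes were the groups free of overlap. These values describe proportions within the group of core genes, and they are given without a test because the step uses the members themselves.

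Some ribosomal proteins have a paralogue that can take their place in the ribosome, and the ratio of the 2 genes within a library does not depend on its scaling. Both genes were counted well enough in 8 pairs. Rps27 had 169, 167, 187, 168 and 191 CPM in control and 185, 178, 182, 177 and 165 CPM in KO, and Rps27l, a p53 target in the mouse, had 76.3, 85.3, 85.0, 78.2 and 88.5 CPM in control and 78.1, 81.8, 84.2, 86.7 and 77.2 CPM in KO. The log2 ratio of Rps27l to Rps27 was -1.09 ± 0.0722 in control and -1.12 ± 0.0776 in KO, so that Rps27l held 29.7 to 33.8% of the counts of the pair. Rpl22l1, which can replace its paralogue Rpl22, had a log2 ratio to it of -1.52 ± 0.0850 in control and -1.54 ± 0.0566 in KO, and held 24.5 to 27.5%. In both pairs every library gave nearly the same share, and the groups overlapped.

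Rpl7l1, a paralogue of Rpl7 with a role in the assembly of the large subunit, had log2 ratios of -2.57 ± 0.0630 and -2.61 ± 0.102 in control and KO. Rpl39l, best known from the testis, had 8.85 to 13.1% of the counts of its pair with Rpl39, with log2 ratios of -3.03 ± 0.150 and -3.04 ± 0.268. Rps4l, an intronless relative of the X-linked Rps4x, had 4.90 to 7.24% of the pair, with log2 ratios of -4.04 ± 0.157 and -3.98 ± 0.215. These 3 paralogues were therefore counted in every library, each well below its parent.

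The last 3 pairs hold near-identical copies. Rps3a2 and Rps3a3 matched the Rps3a1 transcript at 99.5% of 792 and 98.9% of 795 aligned bases, and Rps27rt matched Rps27 at 100% of 341. Each held under 0.9% of the counts of its pair, so that even a small share of parent reads placed on the copy would set its level, and these counts are uncertain. Their log2 ratios were -8.35 ± 0.172 and -8.49 ± 0.120 for Rps3a2, -8.73 ± 0.298 and -8.86 ± 0.0984 for Rps3a3, and -7.69 ± 0.662 and -7.77 ± 0.684 for Rps27rt, in control and KO. No pair passed the test between KO and control. The differences of the 8 log2 ratios ran from -0.13 to 0.058, with exact permutation p between 0.190 and 0.929 (2-sided) and at least 0.836 after Benjamini-Hochberg adjustment over the 8 pairs.

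**Figure D5:**
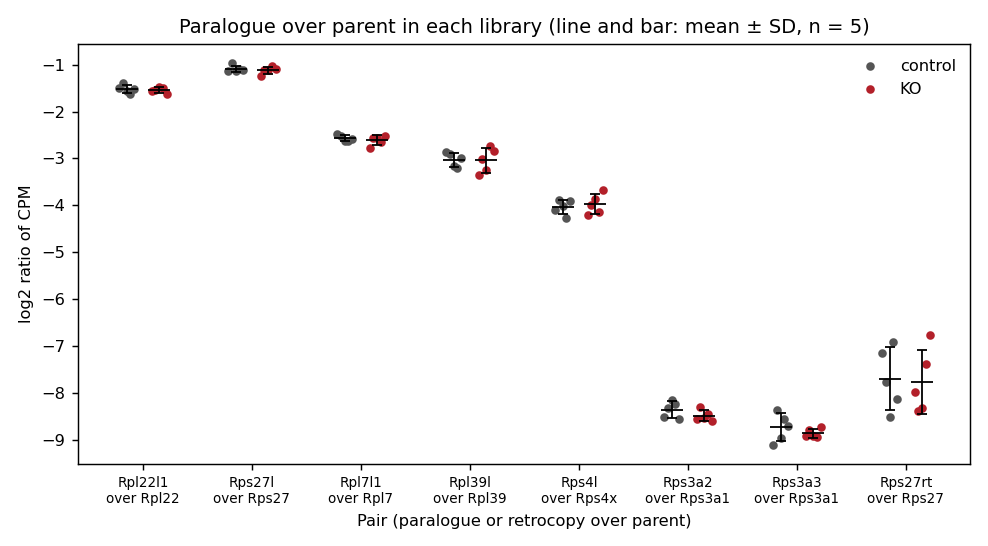
Log2 ratio of the CPM of a paralogue or retrocopy to that of its parent gene in each library, with the mean and SD of 5 control and 5 KO libraries. The ratios of Rpl22l1 and Rps27l lie between -1.62 and -0.97, and those of the near-identical copies of Rps3a1 and Rps27 between -9.10 and -6.77.

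The widest fold changes among the 87 genes belonged to retrocopies and to the core gene Rps10, which had few counts. Rpl32l, with 11 to 26 counts per library, had 0.629, 0.975, 0.799, 0.725 and 1.01 CPM in control and 0.744, 0.527, 0.698, 0.596 and 0.560 CPM in KO. Its log2 fold change was -0.42 ± 0.209 (adjusted p = 0.468, edgeR), and 2 control libraries lay inside the KO range. The log2 fold change was -0.15 for Rps3a3, -0.14 for Rpl6l, -0.11 for Rps3a2 and Rps10, 0.08 for Rps4l and 0.15 for Rpl37rt, where the adjusted p lay between 0.807 and 0.950 (edgeR). Rps4l held 6604 counts over the 10 libraries, and its fold change was no wider than that of the well-counted Rplp2. At the lower depths of the other genes a change of the size of the estimates could not be told from no change.

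The genes around the ribosome were read in lists, beside the same 2.16% of all genes called. Of the ribosomal proteins outside the naming rule, Fau had a log2 fold change of 0.06 and Rack1 of 0.03, with an adjusted p of 0.777 and 0.879 (edgeR). Elongation factors had a median of -0.039, with 0 of 7 called, and Eef2, which moves the ribosome along the mRNA, had 0.07. Factors of ribosome assembly had a median of -0.013 (0 of 45 called), subunits and factors of RNA polymerase I, which makes ribosomal RNA, one of -0.040 (0 of 12), and factors of ribosome quality control one of -0.0022 (0 of 11).

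Initiation factors had a median of 0.042, 23 of 29 were above 0, and 1 of 29 was called, a share near that of all genes. Eif4a2, a helicase that in many cells is the less abundant relative of Eif4a1, rose from 249.8 ± 36.1 to 397.8 ± 41.7 CPM, a log2 fold change of 0.67 (adjusted p = 0.00293, edgeR), without overlap between the groups. The KO libraries also carry the Adipoq-Cre transgene, which the controls lack. The part of the transgene in this difference was not tested and cannot be told apart from that of Fam20c. Among factors that act on ribosomal protein mRNA or genes, 0 of 17 were called, and their median was 0.034. Larp1, which binds the TOP tract and holds the mRNA from translation, had -0.02, Mtor had 0.08, Rps6kb1, the S6 kinase, had 0.02, and Eif4ebp1, a repressor of initiation that mTOR inactivates, had 0.12 (adjusted p = 0.216, edgeR). Tbpl1, a relative of TATA binding protein whose fly homolog acts at ribosomal protein promoters, had 0.23 (adjusted p = 0.0847, edgeR). Of Mdm2, p53 and their targets, with which the particle of Rpl5, Rpl11 and 5S rRNA is linked, 0 of 8 were called, with a median of 0.0098.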

How the data were processed

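RNA-seq of 10 libraries (SMARTer v4 and Nextera XT kits, paired-end) was analysed. A legend of the study gives 4 samples per group for this comparison, whereas 5 per group are labelled, and all were used. The authors mapped reads with STAR v2.6.0c to GRCm38.p6 and counted fragments per gene with featureCounts v1.6.2 on an Ensembl annotation, and deposited the raw counts. The settings for strand and for reads with several matches are not given in the sources used here. The members, lists and tests were chosen with earlier results of these data known.

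Member positions came from GENCODE M21, matched by gene ID (52073 of 56748 rows, all 93 members). Genes were kept by filterByExpr (minimum count 10), scaled by TMM and tested with edgeR 4.0.16 in R 4.3.3 (robust quasi-likelihood test, KO against control, no covariate, adjusted p limit 0.05 over all genes tested). CPM used TMM library sizes. TPM used the length of 1 representative transcript per gene. Near-identical copies were aligned with BLAST 2.17.0. DESeq2 1.42.0 and limma 3.58.1 were alternatives. The fit was tested on simulated data. Totals of 18949106 to 26237825 counts bound the precision by counting error only.

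Members named were those with the 5 highest and 5 lowest fold changes at a mean log2 CPM of at least 0, the 5 highest and 5 lowest TPM, both genes of each paralogue pair, and a list by role. Results for some genes are not reported here. Rpl24, Rpl36al, Rps20 and single genes of the surrounding lists were named after their values were seen. Counts of 2 libraries of a group differed beyond sampling noise in each pair (chi-square per degree of freedom 3.54 to 40.1). Alternatives were other scalings, no filter, other tools, a length trend, a replicate block and leaving out libraries.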

Additional observations from a re-analysis of the deposited data

Results flagged for a closer look

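Dixon's test for 1 library far from the other 4 of its group was run on 70 groups, of which chance alone would pick about 3.5, and it picked 3. In Rpl37rt, a retrocopy, KO 5 had 3.61 CPM where the other KO libraries had 2.63 to 2.89 (gap over range 0.739). In Rpl39l, control 4 had 15.3 CPM where the other controls had 18.3 to 19.1 (0.769). In Rplp2, KO 3 had 421 CPM where the other KO libraries had 368 to 382 (0.740).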

How the results depend on the processing

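No ribosomal protein gene was called higher or lower under any of the alternatives run, which were DESeq2, size factors by RLE, total counts, TMM without the members, no filter, limma voom with quality weights, a length trend, a replicate block and leaving out libraries. The median of the members ranged from -0.006 (without control 4 and KO 1) to 0.046 (without KO 2). The libraries were not taken as pairs by number. The correlations of deviations between libraries of the same number were -0.17, 0.089, 0.26, -0.25 and 0.034, and of the controls only number 3 correlated best with its own number. The largest correlation, 0.49, was between control 4 and KO 1. Such correlations cannot show whether equal numbers mark a shared preparation. With the replicate block the median of the members was 0.015, and 247 genes were called in all, beside 308 without it. DESeq2 called 484, and 515 were called without control 4 and KO 1. At an unadjusted p under 0.05, 0 to 3 members passed over the alternatives, the most without KO 2.

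Several uncalled fold changes close to 0 changed sign, and the cause was not tested. With total counts the median over all genes tested was -0.023, beside -0.00085 with scaled library sizes. On that scale Rpl13a had -0.0049, Rpl22l1 -0.011, Rplp0 -0.016, Rplp1 -0.0048, Rps18 -0.0015, Rps27 -0.014 and Rps27a -0.0045. By voom Rpl22l1 had -0.015, Rplp0 -0.0072 and Rps27rt 0.018, and with the length trend removed Rpl22l1 had -0.0015 and Rps27 -0.0049. On leaving out libraries the log2 fold change ranged from -0.034 to 0.013 for Rpl10, -0.029 to 0.065 for Rpl13a, -0.013 to 0.047 for Rpl22l1, -0.040 to 0.044 for Rpl39, -0.091 to 0.044 for Rpl39l, -0.0013 to 0.058 for Rpl7, -0.030 to 0.037 for Rplp0, -0.021 to 0.073 for Rplp1, -0.29 to 0.091 for Rps10, -0.017 to 0.061 for Rps18, -0.079 to 0.0065 for Rps19, -0.021 to 0.038 for Rps27, -0.0027 to 0.057 for Rps27a, -0.046 to 0.0074 for Rps27l and -0.36 to 0.24 for Rps27rt. The difference in log2 ratio ranged from -0.048 to 0.0078 for Rpl22l1 over Rpl22, -0.089 to 0.069 for Rpl39l over Rpl39, -0.051 to 0.0041 for Rps27l over Rps27, -0.33 to 0.17 for Rps27rt over Rps27 and -0.018 to 0.12 for Rps4l over Rps4x. The difference in the share of counts ranged from -0.057 to 0.038 percentage points. With all exon bases as length, added after the data were seen, 2 of the 5 genes with the highest level per length stayed among the 5 highest. Depth limits the retrocopies, Rps10 and Rpl24 most.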
